A study of Mus musculus with 8 samples.

Results

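The Rab genes encode small GTPases that mark membrane compartments and steer vesicle traffic between them. Members were taken by name: every row of the deposited count table whose gene symbol is Rab, a number and at most a letter and a further digit, which leaves out pseudogenes and antisense RNAs. The rule found 59 Rab genes among the 53921 rows that name a gene, and 48 of them were among the 15324 genes with enough counts to be tested. The measurements are RNA-seq counts from mouse induced cardiomyocytes, cells on the way from fibroblast to heart muscle cell under forced transcription factors. Each of the 4 libraries came from day 5 cells whose treatment label reads MGT, the usual short name of the reprogramming factors Mef2c, Gata4 and Tbx5. In 2 libraries the cells also carried the hairpin labelled shNT, read here as the non-targeting control, and in the other 2 a hairpin against Grhl3, a Grainyhead-like transcription factor. The cell type label adds the word Neo, the labels give no strain, age or number of hairpin sequences, and the H3K27ac CUT&Tag samples of the series were not analysed here.

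A Rab protein is switched on when a guanine nucleotide exchange factor (GEF) loads it with GTP, and off when a GTPase-activating protein (GAP) makes it hydrolyse that GTP. In its GTP form it holds effectors such as tethers and motor adaptors on the membrane, and in its GDP form a GDP dissociation inhibitor (GDI) can lift it off. Membrane binding depends on lipid groups that Rab geranylgeranyl transferase adds to the tail of the protein with the help of a Rab escort protein. In heart and skeletal muscle cells Rab proteins are known for moving glucose transporters, receptors, secretory granules and autophagosomes. Many exist as close paralogs (Rab8a and Rab8b, Rab1a and Rab1b) that serve the same step.

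The libraries held 16104243 to 19823397 counts, and the Rab genes together took 0.389% to 0.413% of them. Counts of Rn18s, the ribosomal RNA gene, were 0.573% and 2.00% of the shNT libraries, highest in shNT 2, and 0.0959% and 0.156% of the shGrhl3 libraries. Grhl3 itself was near the limit of what these depths can measure, with 31 and 14 counts in shNT and 11 and 19 in shGrhl3 (edgeR adjusted p = 0.311), so the knockdown label was neither borne out nor contradicted by its own transcript. Of 14 cardiomyocyte markers, all detected, 7 rose in shGrhl3, among them Myh6 (12.2-fold) and Tnni3 (6.00-fold), and Nppa fell, while the summed level, most of it from Tnnt2, which did not pass, was 4948 and 4956 CPM (counts scaled to library size) in shNT and 6246 and 6090 in shGrhl3. Of 12 fibroblast markers 6 fell, among them Pdgfra (2.21-fold) and Tcf21 (1.63-fold), and 2 rose, Col1a1 (1.45-fold) and Lum (1.34-fold), while their sum stayed at 23608 to 25435 CPM. Leukocyte markers moved with the groups: their sum over 19 genes was 689 and 948 CPM in shNT and 158 and 127 in shGrhl3. Of the 14 tested, 13 fell and Csf1r rose. The other 5 had too few counts to be tested. Of these, C1qb (5 and 2 counts in shNT) and C1qc (6 and 6) were at 0 in both shGrhl3 libraries. Aif1, Cd74 and C1qa overlapped between the groups. Over all 15324 genes tested, 17.2% rose and 18.1% fell, by an edgeR adjusted p under 0.05 as for the markers. Of 10 endothelial markers 2 fell and none rose, and their sum was 63.9 and 61.7 CPM in shNT and 50.7 and 45.8 in shGrhl3. Of 10 smooth muscle and pericyte markers 2 rose and 2 fell. Of 6 epicardial and mesothelial markers tested 2 rose and none fell, and of 3 platelet markers tested 1, Pf4, fell. These marker values stand beside every Rab difference given here, and their part in those differences was not tested. In bulk RNA, fewer cells of a type and less RNA per cell cannot be told apart.

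The start regions of 4 lowered Rab genes are shown because they have the lowest p-values among lowered Rab genes with a usable window (Rab29, next by p after Rab10, was passed over since its window runs into the annotated gene), and that of Rab8a because it is the close paralog of Rab8b and did not fall. Each is the 250 bases before the annotated transcript start in RefSeq GRCm38.p6, the assembly behind mm10, written 5′ to 3′ on the gene's own strand, and only windows outside the span of every annotated gene were taken. Capitals mark matches to any of the 7 motifs listed after the sequences. The windows lie at chr9:66919706-66919955 (minus strand) for Rab8b, chr12:3309970-3310219 (minus strand) for Rab10, chr19:5106997-5107246 (minus strand) for Rab1b, chr10:10558208-10558457 (minus strand) for Rab32 and chr8:72160950-72161199 (plus strand) for Rab8a.
Rab8b: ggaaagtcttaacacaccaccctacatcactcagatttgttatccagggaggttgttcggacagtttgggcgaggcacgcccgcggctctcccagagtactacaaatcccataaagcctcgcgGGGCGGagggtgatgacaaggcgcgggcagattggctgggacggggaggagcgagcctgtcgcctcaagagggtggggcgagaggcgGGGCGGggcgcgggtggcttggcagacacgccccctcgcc
Rab10: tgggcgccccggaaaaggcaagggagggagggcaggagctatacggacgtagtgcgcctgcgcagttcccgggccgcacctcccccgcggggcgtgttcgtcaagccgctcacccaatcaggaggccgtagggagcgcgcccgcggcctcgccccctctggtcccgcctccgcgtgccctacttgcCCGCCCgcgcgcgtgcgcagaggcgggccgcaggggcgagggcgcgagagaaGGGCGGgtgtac
Rab1b: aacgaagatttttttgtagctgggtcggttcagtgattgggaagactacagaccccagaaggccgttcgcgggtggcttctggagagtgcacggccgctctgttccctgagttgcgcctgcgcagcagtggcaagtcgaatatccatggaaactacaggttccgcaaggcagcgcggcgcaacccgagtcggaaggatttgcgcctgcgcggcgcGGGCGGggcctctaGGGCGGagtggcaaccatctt
Rab32: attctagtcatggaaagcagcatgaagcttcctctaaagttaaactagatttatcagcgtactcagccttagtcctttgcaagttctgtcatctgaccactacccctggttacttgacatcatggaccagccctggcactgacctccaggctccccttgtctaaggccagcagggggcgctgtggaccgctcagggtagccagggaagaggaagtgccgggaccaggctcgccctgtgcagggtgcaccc
Rab8a: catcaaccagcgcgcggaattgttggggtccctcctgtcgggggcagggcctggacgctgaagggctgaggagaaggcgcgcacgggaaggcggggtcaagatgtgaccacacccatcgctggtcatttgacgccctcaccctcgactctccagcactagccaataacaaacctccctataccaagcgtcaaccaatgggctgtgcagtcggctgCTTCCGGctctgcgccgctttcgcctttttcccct

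The motifs were searched on both strands, and none contains another. They were the Grainyhead-like motif AACNGGTT, the E-box CACGTG, the GC box GGGCGG, the cyclic AMP response element TGACGTCA, the palindromic NRF1 consensus, the ETS motif CCGGAAG and the TATA box TATAAA. In the 5 sequences shown, the Rab8b, Rab10 and Rab1b windows each hold 2 GC boxes, the Rab32 window holds no match, and the Rab8a window holds 1 ETS match and no GC box. The windows also differ in CpG number, with 34 CpG in Rab10, 23 in Rab1b, 20 in Rab8b, 18 in Rab8a and 5 in Rab32. RefSeq gave 60 windows for 48 of the 59 Rab genes. A GC box was found in 66.7% of these windows and in 32.7% of all 32841 windows, and the median CpG number was 15 against 6. The comparison was not limited to tested genes: the 32841 windows belong to 27018 genes. The 7 windows of Rab genes not tested held a GC box in 42.9%, with a median CpG number of 8. Among the 12 windows of lowered Rab genes, which cover 11 genes, 8 (66.7%) hold a GC box, the same share as among all Rab windows. None holds any of the other 6 motifs as searched. NRF1 was searched in its exact palindromic form only, so other forms of it were not counted. The Grainyhead-like motif was found in 1 Rab window, that of Rab25, which is 1.67% of Rab windows against 1.79% of all. The E-box was found in 8.33% of Rab windows against 6.02% of all, the cyclic AMP response element in 3.33% against 1.55%, the ETS motif in 5.0% against 6.91%, the TATA box in 6.67% against 12.4%, and the NRF1 motif in 0.0% against 0.783%. A match is a run of letters in these windows and not a measured binding site.

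Of the 48 Rab genes tested, 15 passed edgeR's quasi-likelihood test at an adjusted p under 0.05, 12 lower and 3 higher in shGrhl3. Over all 15324 genes tested, 35.3% passed, against 31.2% of the Rab genes. The split by direction was 25% of Rab genes lower, against 18.1% of all genes, and 6.25% higher, against 17.2%. Over all genes, 7.62% passed with a change of at least 2-fold. A fall of that size was seen in 6 Rab genes (Rab8b, Rab40b, Rab29, Rab32, Rab10 and Rab3d), which is 12.5%, against 4.28% of all genes, and none rose that far, against 3.34%. The median log2 fold change of the tested Rab genes was -0.16, beside -0.01 for all genes tested. The CPM of the 2 groups did not overlap in 34 of the 48, with shGrhl3 below in 22 and above in 12; over all genes the groups did not overlap in 66.5%. Nothing in the labels tells separate cultures from repeat libraries, so these p-values cover only the spread between libraries, which may be technical.

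**Figure D1:**
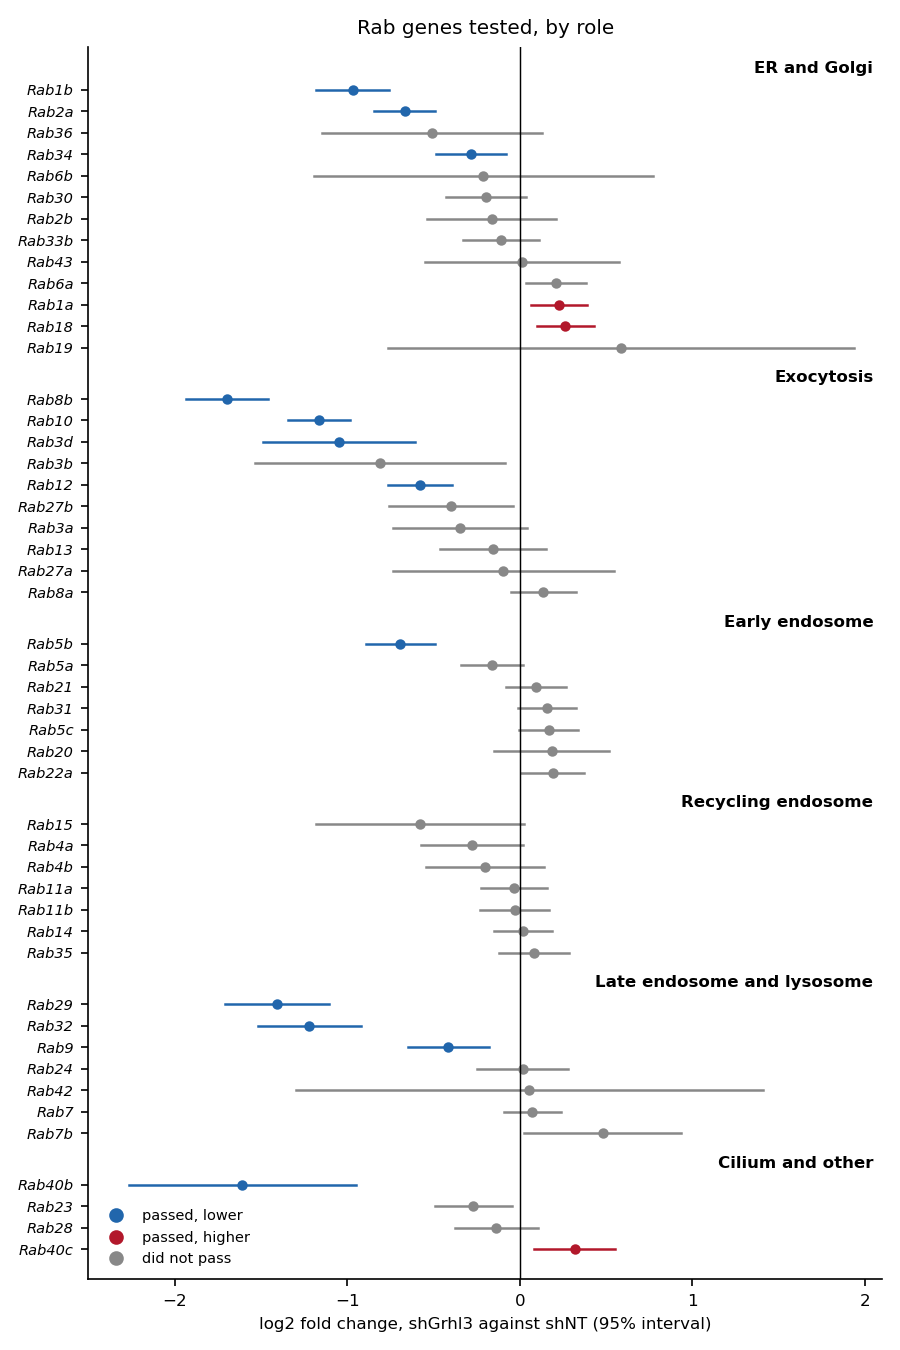
Log2 fold changes (horizontal axis, shGrhl3 against shNT) of the 48 Rab genes tested, grouped by role; points are edgeR estimates from 2 libraries a group, bars are 95% intervals, and blue, red and grey mark genes lower, higher and not past the threshold. The lowest points, Rab8b at -1.70, Rab40b at -1.61 and Rab29 at -1.41, lie in different groups. The 7 recycling endosome genes are all grey, where 35.3% of all genes tested passed.

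The largest single fall was that of a secretory Rab gene. In the exocytosis group 4 of 10 tested genes fell (40%, where 35.3% of all genes passed and 18.1% fell), none rose, and the median log2 fold change was -0.49. Rab8b, which carries vesicles from the Golgi and recycling endosomes to the plasma membrane (chromosome 9, 66843609 to 66919705), was at 63.5 and 58.4 CPM in shNT and 19.9 and 17.6 in shGrhl3. Both shGrhl3 libraries were far below both shNT libraries, 3.25-fold lower on average (log2 -1.70, SE 0.12, edgeR adjusted p = 9.80e-11). Its promoter window is the first of those printed. Rab10, which acts in the same outward traffic and is known for delivering the glucose transporter GLUT4 to the surface (chromosome 12, 3247428 to 3309969), was at 206 and 208 CPM in shNT and 96.4 and 88.6 in shGrhl3. Its shNT values lay close together, and the drop between groups was 2.24-fold (log2 -1.16, SE 0.09, edgeR adjusted p = 4.28e-10). The antisense gene Rab10os overlaps Rab10 and had 393 and 249 counts in shNT and 292 and 281 in shGrhl3, far fewer than the 1656 to 3941 counts of Rab10; no strand setting of the counting was found, so reads of the overlap cannot be told apart.

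Rab3d, a Rab of secretory granules, was at 8.47 and 11.0 CPM in shNT and 4.69 and 4.66 in shGrhl3, a 2.07-fold fall (log2 -1.05, SE 0.21, edgeR adjusted p = 0.000464). Rab12, listed here with the exocytosis genes but also known for sending transferrin receptor from recycling endosomes towards lysosomes, was at 119 and 125 CPM in shNT and 84.1 and 79.8 in shGrhl3. Rab12 fell by 0.58 on the log2 scale (SE 0.09, edgeR adjusted p = 2.11e-05), with no overlap between groups. Without it the exocytosis count is 3 of 9. The other 6 did not pass. Rab8a, the paralog of Rab8b, was at 92.5 and 90.7 CPM in shNT and 105 and 96.4 in shGrhl3 (log2 0.14, 95% interval -0.05 to 0.33). Rab3b, one of the neuronal and endocrine Rab3 proteins, was at 4.02 and 2.46 CPM against 2.24 and 1.5 (log2 -0.81, edgeR adjusted p = 0.0769), and its value moved between -1.13 and -0.38 when single libraries were left out, passing the test without shNT 2 or without shGrhl3 1. Rab27b, a secretory granule Rab, was at 11.0 and 11.7 CPM against 8.33 and 8.89 (log2 -0.40, edgeR adjusted p = 0.0772). Rab3a (log2 -0.34), Rab13 (log2 -0.15) and Rab27a (log2 -0.09) complete the group, with overlapping groups in Rab13 and Rab27a.

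Between the endoplasmic reticulum and the Golgi, 13 Rab genes were tested, of which 3 fell, 2 rose and 8 did not pass (38.5% called, against 35.3% of all genes). The falls were in Rab1b, Rab2a and Rab34, and the rises in Rab1a and Rab18. Rab1b, which drives vesicles from the endoplasmic reticulum to the Golgi (chromosome 19, 5099207 to 5106996), was at 115 and 118 CPM in shNT and 65.7 and 53.3 in shGrhl3. Every shGrhl3 value was below every shNT value, 1.96-fold on average (log2 -0.97, SE 0.10, edgeR adjusted p = 7.78e-08). Rab2a, which acts on membranes between the endoplasmic reticulum and the Golgi and in lysosome fusion, was at 246 and 251 CPM in shNT and 166 and 147 in shGrhl3. That is a fall of 1.59-fold (log2 -0.67, SE 0.09, edgeR adjusted p = 1.63e-06).

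Rab34, a Golgi and cilium Rab, was at 68.6 and 77.5 CPM in shNT and 61.3 and 58.7 in shGrhl3 (log2 -0.28, SE 0.10, edgeR adjusted p = 0.0288). This call was lost with DESeq2 (adjusted p = 0.0687), without shNT 2 (log2 -0.19, adjusted p = 0.334) and without shGrhl3 2 (log2 -0.23, adjusted p = 0.105). Rab18, known from lipid droplets and the endoplasmic reticulum, was at 229 and 228 CPM in shNT and 268 and 281 in shGrhl3, a rise of 1.2-fold (log2 0.27, SE 0.08, edgeR adjusted p = 0.0133). Rab1a, the paralog of Rab1b, was at 433 and 413 CPM in shNT and 487 and 502 in shGrhl3, a rise of 1.17-fold (log2 0.23, SE 0.08, edgeR adjusted p = 0.0286). The groups of both genes were apart, but by small steps. Rab18 lost its call without shNT 1 (adjusted p = 0.129) or shNT 2 (0.124), and Rab1a without shNT 1 (adjusted p = 0.139) or shNT 2 (0.292).

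The 8 that did not pass include Rab6a, a Rab of traffic within and back from the Golgi, at 183 and 170.3 CPM in shNT and 198 and 211 in shGrhl3. Its log2 fold change of 0.21 missed the threshold (edgeR adjusted p = 0.0572) and passed when libraries were scaled by their size alone (0.0352) or without shGrhl3 1 (0.0213). Rab30 had a log2 fold change of -0.20, Rab33b, which recruits the autophagy factor Atg16l1, one of -0.11, and Rab2b one of -0.16. Rab43 (log2 0.01), Rab36 (log2 -0.51), Rab6b (log2 -0.21) and Rab19 (log2 0.59) were counted at 6.32 CPM or less in each library, where their 95% intervals were wide, up to -0.77 to 1.94 for Rab19.

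On early endosomes 1 of 7 tested genes passed (14.3%, against 35.3% of all genes). Rab5b, one of the 3 Rab5 proteins that drive early endosome fusion (chromosome 10, 128677170 to 128696284), was at 110.2 and 115 CPM in shNT and 75.1 and 64.1 in shGrhl3. The gap between groups exceeded that between libraries, with a fall of 1.62-fold (log2 -0.69, SE 0.10, edgeR adjusted p = 5.00e-06). The span of Rab5b overlaps Pmel in the annotation, and Pmel was at 0.91 to 1.85 CPM in the 4 libraries. The others were Rab5a (log2 -0.16), Rab5c (log2 0.17), Rab21, an integrin traffic Rab (log2 0.10), Rab22a (log2 0.19), Rab31 (log2 0.16) and Rab20, a phagosome Rab (log2 0.19). In all 6 the groups did not overlap, as in 66.5% of all genes, and the edgeR adjusted p ranged from 0.0972 to 0.406.

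With Rab12 placed elsewhere, no gene of the recycling endosome list passed among 7 tested, by edgeR's quasi-likelihood test or by DESeq2, and none had an unadjusted edgeR p under 0.05. Over all genes tested, 35.3% passed by the edgeR test, and no difference between this small group and that share was tested. Rab11a, the central Rab of the recycling endosome, was at 133 and 131 CPM in shNT and 140.0 and 118 in shGrhl3 (log2 -0.03, 95% interval -0.23 to 0.16). Rab11b (log2 -0.03, 95% interval -0.23 to 0.17), Rab14 (log2 0.02, -0.15 to 0.19) and Rab35 (log2 0.08, -0.12 to 0.29) had intervals of similar width around 0. For these 4 genes a change of 2-fold in either direction lies outside the interval. Rab4a and Rab4b, of the fast recycling route, had log2 fold changes of -0.28 and -0.20, and the weakly counted Rab15, at 2.54 to 3.97 CPM, one of -0.58 with an interval of -1.18 to 0.02.

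Of 7 tested genes of late endosomes, lysosomes and lysosome-related organelles, 3 fell and none rose, which is 42.9% against the 35.3% of all genes that passed. Rab29, a Golgi and lysosome Rab known for recruiting the kinase Lrrk2 (chromosome 1, 131867210 to 131872887), was at 23.9 and 26.6 CPM in shNT and 9.23 and 9.74 in shGrhl3. The shGrhl3 values were 2.65-fold lower (log2 -1.41, SE 0.15, edgeR adjusted p = 6.45e-08). Rab32, known from melanosomes and other lysosome-related organelles and from mitochondria (chromosome 10, 10545039 to 10558207), was at 24.0 and 24.9 CPM in shNT and 11.3 and 9.64 in shGrhl3. It fell 2.33-fold (log2 -1.22, SE 0.14, edgeR adjusted p = 4.97e-07). Of the melanocyte markers, 3 of 7 were tested and none passed, and Lrrk2 did not pass (log2 -0.31, edgeR adjusted p = 0.0688).

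Rab9, which returns mannose 6-phosphate receptors from late endosomes to the Golgi, was at 34.7 and 37.2 CPM in shNT and 27.7 and 26.2 in shGrhl3. Its fall of 1.33-fold (log2 -0.41, SE 0.11, edgeR adjusted p = 0.00667) was lost without shNT 2 (adjusted p = 0.0729). Rab7, the main Rab of late endosome to lysosome fusion, was at 469 and 470.1 CPM in shNT and 514 and 474 in shGrhl3 (log2 0.07, 95% interval -0.09 to 0.24). Rab7b was at 5.07 and 5.73 CPM against 8.48 and 6.48 (log2 0.48, edgeR adjusted p = 0.0952) and passed only without shGrhl3 2 (0.0355) among the settings tried. Rab24, an autophagy Rab (log2 0.02), and Rab42 (log2 0.06) did not pass.

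The remaining group holds Rabs of cilia and of ubiquitin ligases. Rab40b and Rab40c carry a SOCS box, through which they join Cullin5 ubiquitin ligases, and they moved in opposite directions. Rab40b (chromosome 11, 121356121 to 121388251) was at 4.28 and 4.91 CPM in shNT and 1.60 and 1.39 in shGrhl3, a fall of 3.05-fold (log2 -1.61, SE 0.32, edgeR adjusted p = 0.000348). Rab40c was at 28.6 and 31.3 CPM in shNT and 37.9 and 36.7 in shGrhl3, a rise of 1.25-fold (log2 0.32, SE 0.11, edgeR adjusted p = 0.0307). The Rab40c call was lost with DESeq2 (adjusted p = 0.0773), without shNT 1 (0.258), without shNT 2 (0.0562) and without shGrhl3 1 (0.0924). Rab23, a negative regulator of Hedgehog signalling at the cilium, was at 42.6 and 46.3 CPM against 38.1 and 35.6 (log2 -0.27, edgeR adjusted p = 0.055), and Rab28 had a log2 fold change of -0.14.

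**Figure D2:**
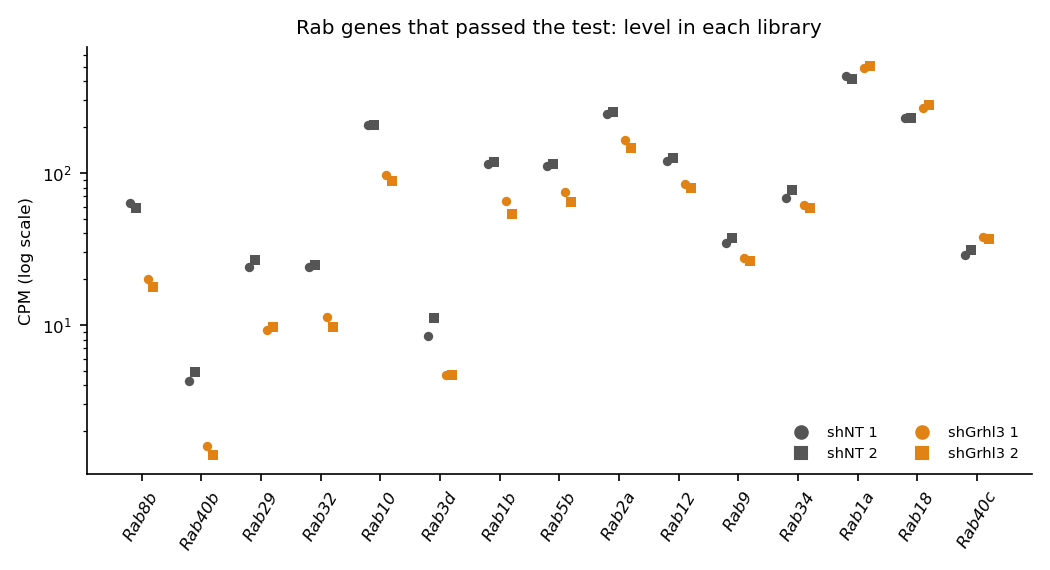
Level in CPM (log axis) of the 15 Rab genes that passed the test, ordered by fold change, in each library (grey shNT, orange shGrhl3, circles replicate 1, squares replicate 2). The 2 groups are apart in every gene, widely from Rab8b to Rab1b and narrowly for Rab34, Rab1a, Rab18 and Rab40c.

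A further 11 Rab genes had too few counts to be tested. Rab26, a Rab of secretory granules, had 9 and 13 counts in shNT and 2 and 3 in shGrhl3, and Rab39b had 13 and 6 against 2 and 3. Rab44 had 6 and 8 against 2 and 1, Rab3c 10 and 8 against 5 and 7, Rab37 8 and 7 against 5 and 2, and Rab33a 5 and 8 against 7 and 7. The epithelial Rab25 had 2 and 6 counts against 1 and 1, and Rab17, also known from epithelia, 5 and 1 against 2 and 1. Rab38, the melanosome paralog of Rab32, had 3 and 3 against 5 and 5. Rab39 had 1 and 0 against 0 and 0, and Rab9b 0 and 0 against 0 and 3. At these counts no difference between groups was read.

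In 6 sets of close paralogs a member that fell stood beside one that did not pass or rose. The log2 ratio of Rab8b to Rab8a was -0.54 and -0.63 in shNT and -2.40 and -2.45 in shGrhl3. Only the change of such a ratio between libraries is read here, since CPM is not divided by transcript length: it moved by -1.84. For Rab40b to Rab40c the ratio was -2.74 and -2.67 against -4.57 and -4.72, a change of -1.94, and for Rab1b to Rab1a it was -1.91 and -1.80 against -2.89 and -3.24, a change of -1.2. Within the early endosome trio, the ratio of Rab5b to Rab5c moved by -0.87 and that of Rab5b to Rab5a by -0.54. Rab3d to Rab3a moved by -0.70 and Rab2a to Rab2b by -0.51. In all 7 pairs the ratios of the groups did not overlap. The pairs were chosen because 1 member had passed, so this follows in large part from the choice. The changes themselves were not tested, and paralog sets with no member past the threshold are not given as ratios. Rab3a, Rab3b and Rab5a did not pass, but both their shGrhl3 values also lay below both shNT values. Summed over both genes, the Rab1 pair was at 531 to 555 CPM in all 4 libraries. Most of that sum was Rab1a, at 413 to 502 CPM, so it says little about Rab1b. The Rab8 pair was at 156 and 149 CPM in shNT and 125 and 114 in shGrhl3. The treatment of reads shared by paralogs or pseudogenes is unknown here, and could move such ratios. The table lists Rab7-ps1 (109 to 157 counts) and Rab11b-ps2 (135 to 185 counts) as rows of their own.

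**Figure D3:**
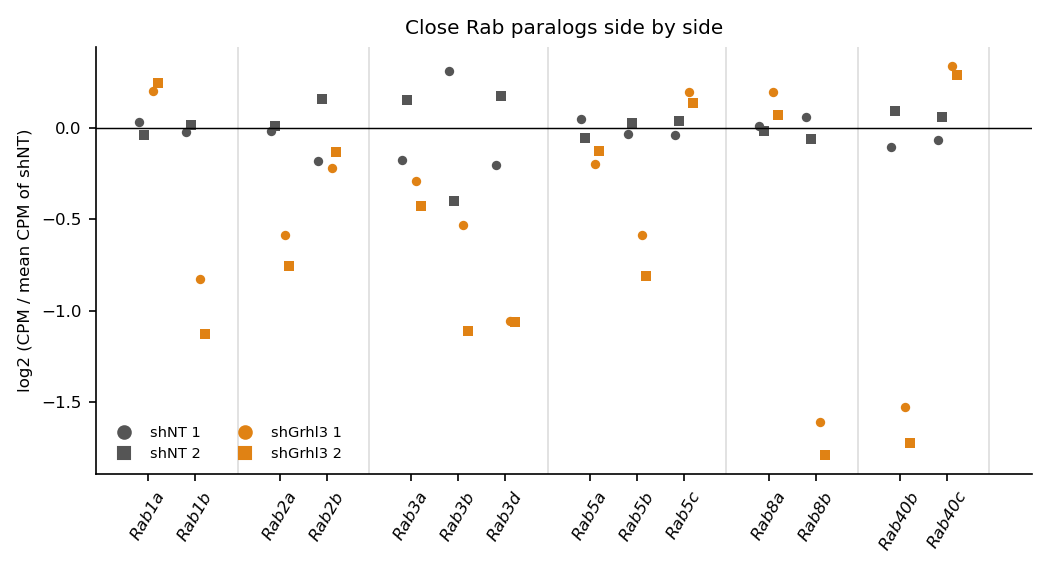
Log2 of CPM over the mean shNT CPM of the same gene (vertical axis) for 6 sets of Rab paralogs, with each library a point (grey shNT, orange shGrhl3, circles replicate 1, squares replicate 2). In the Rab1, Rab8 and Rab40 sets the orange points of 1 paralog lie well below 0 and those of the other slightly above it.

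Genes that act on Rab proteins were described from 8 lists with 156 tested members, of which 33 fell and 19 rose, with a median log2 fold change of -0.02. That is 33.3% past the threshold, near the 35.3% of all genes. Of the 6 genes for prenylation and GDI, 4 fell and none rose, with a median of -0.41. The share past the threshold was 66.7%, where 35.3% of all genes tested passed and 18.1% fell. Rabggtb, the catalytic subunit of Rab geranylgeranyl transferase, was at 62.8 and 67.9 CPM in shNT and 36.2 and 35.8 in shGrhl3, a fall of 1.82-fold (log2 -0.86, SE 0.10, edgeR adjusted p = 5.53e-07). Gdi2, the broadly expressed GDP dissociation inhibitor, was at 459.6 and 450.2 CPM in shNT and 341 and 303 in shGrhl3, a fall of 1.41-fold (log2 -0.50, SE 0.08, edgeR adjusted p = 4.73e-05). Chml, one of the 2 Rab escort proteins, was at 25.0 and 20.2 CPM against 11.9 and 15.3 (log2 -0.74, SE 0.15, edgeR adjusted p = 0.000502).

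The same list held a smaller fall in Rabac1, the prenylated Rab acceptor, at 111 and 119 CPM against 96.1 and 88.6 (log2 -0.32, edgeR adjusted p = 0.00838). Chm, the other escort protein (log2 -0.20, adjusted p = 0.165), and Rabggta, the other transferase subunit (log2 -0.15, adjusted p = 0.450), did not pass. Rabac1 lost its call without shNT 2 (adjusted p = 0.134), which left a count of 3, and without shGrhl3 2 (0.0570), where the count stayed at 4 because a member that had not passed with all libraries did so there.

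**Figure D4:**
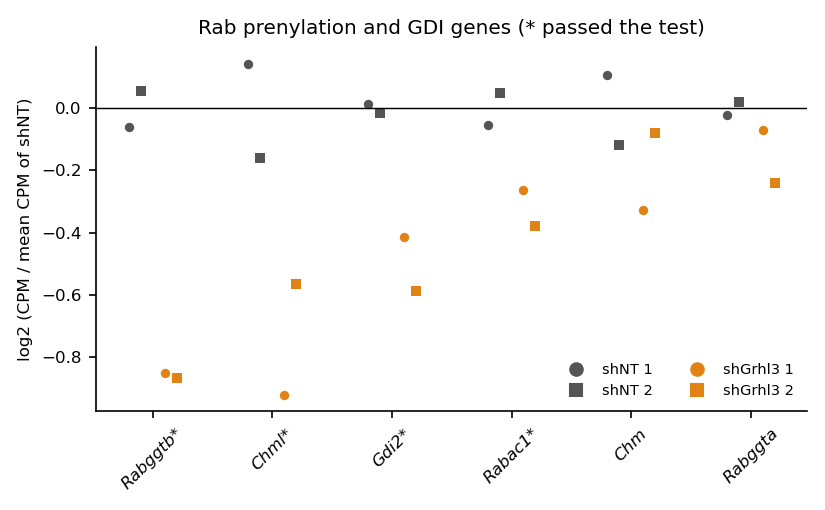
Log2 of CPM over the mean shNT CPM of the same gene for the 6 prenylation and GDI genes, 1 point a library (grey shNT, orange shGrhl3, circles replicate 1, squares replicate 2), with an asterisk on the 4 that passed the test. Both orange points lie below both grey points in 5 genes, and only Chm overlaps. Over all genes tested, the groups did not overlap in 66.5%.

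Among 34 GEF genes tested, 7 fell and 4 rose (32.4% called, against 35.3% of all genes). The falls with the lowest p were Dennd5b (log2 -1.07, at 26.6 and 26.7 CPM against 11.8 and 13.6), Dennd4a, an exchange factor of Rab10 (log2 -0.55, at 71.4 and 67.6 CPM against 44.5 and 50.3, while its relatives Dennd4b at log2 0.04 and Dennd4c at -0.01 did not pass), the Rab5 exchange factor Rin2 (log2 -0.36) and Als2cl (log2 -0.46). The 4 rises were in the Rab5 exchange factors Rin1 (log2 0.91, at 23.0 and 19.96 CPM against 38.9 and 42.0, edgeR adjusted p = 2.37e-06) and Rabgef1 (log2 0.41), the Rab35 exchange factor Dennd1b (log2 0.54), and Ankrd27, an exchange factor of Rab21 (log2 0.30). Ankrd27 lost its call with DESeq2 and without shNT 1, shNT 2 or shGrhl3 2 (adjusted p up to 0.163). Exchange factors of Rab5 therefore stood on both sides. In the TRAPP complexes, which activate Rab1 and Rab11 proteins, 1 of 14 genes fell (Trappc2l, log2 -0.60) and 1 rose (Trappc6a, log2 0.45, lost without shNT 1, without shNT 2 and with DESeq2, adjusted p up to 0.106). Together that is 14.3% of TRAPP genes called, against 35.3% of all genes. The count of rises in TRAPP genes reached 3 when libraries were scaled by size only.

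Of 36 GAP genes, 9 fell and 6 rose (41.7% called, against 35.3% of all genes). Without shNT 2 the counts were 6 and 2, and some calls were near the threshold: Tbc1d1 lost its call in 9 of the 13 other settings and Rabgap1l in 7. Tbc1d9 was at 32.8 and 35.1 CPM in shNT and 12.8 and 13.4 in shGrhl3 (log2 -1.37, SE 0.13, edgeR adjusted p = 1.54e-08), the lowest p of the list. Rabgap1 fell by 0.80 on the log2 scale. Tbc1d4, the GAP known as AS160 that holds glucose transporter vesicles inside muscle and fat cells by acting on Rab10 and its relatives, was at 38.9 and 31.8 CPM against 20.05 and 18.9 (log2 -0.86, SE 0.13, edgeR adjusted p = 1.05e-05). The fourth by p was Tbc1d9b (log2 -0.46). The rises with the lowest p were Tbc1d16 (log2 0.64), Tbc1d13, a GAP of Rab35 (log2 0.47), Tbc1d23 (log2 0.34) and Tbc1d7, a subunit of the tuberous sclerosis complex (log2 0.47). Tbc1d23 lost its call without shNT 2 (adjusted p = 0.0957), and Tbc1d7 without shNT 2 (0.0563) or shGrhl3 1 (0.0565).

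Among 43 effector genes tested, 10 fell and 2 rose (27.9% called, against 35.3% of all genes). Over all genes tested, 18.1% fell and 17.2% rose. More effector genes rose when shGrhl3 1 was left out. Sytl2, which ties Rab27 granules to the plasma membrane, was at 184 and 174 CPM in shNT and 75.0 and 72.1 in shGrhl3, a fall of 2.43-fold (log2 -1.28, SE 0.09, edgeR adjusted p = 1.22e-10). Its partners Rab27a and Rab27b did not pass. The Golgi tether Gcc2 (log2 -0.93), the inositol phosphatase Ocrl, which binds many Rab proteins (log2 -0.81), and the early endosome effector Rufy1 (log2 -0.72) followed. The 2 rises were in Rab11fip1, a Rab11 effector (log2 0.83, at 12.0 and 15.5 CPM against 22.8 and 25.7, edgeR adjusted p = 9.85e-05), and Mical3, an actin oxidase that binds Rab8 (log2 0.49).

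The HOPS and CORVET tethers, which join Rab7 and Rab5 membranes, were mixed. Of 8 tested, 62.5% passed, against 35.3% of all genes. Vps39 (log2 0.72), Vps33a (log2 0.39) and Vps8 (log2 0.34) rose, and Vps11 (log2 -0.32) and Vps16 (log2 -0.35) fell. Vps39, a HOPS subunit, was at 30.5 and 28.8 CPM against 46.9 and 50.8 and kept its call in all settings tried. The calls of the other 4 were each lost when single libraries were left out, with adjusted p up to 0.0694 for Vps33a, 0.0932 for Vps8, 0.102 for Vps11 and 0.205 for Vps16. Of 9 exocyst genes, which tether secretory vesicles for Rab8 and Rab10 among others, 1 passed (11.1%, against 35.3% of all genes). Exoc8 rose (log2 0.35) and lost its call without shNT 1, while more exocyst genes were higher without shGrhl3 1. Of 6 Rab-like genes tested, 33.3% passed, against 35.3% of all genes. Rabl6 (log2 0.57) and Rabl3 (log2 0.50) rose, and Rabl3 lost its call without shNT 2.

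Within the shNT pair, the sum of the leukocyte markers was 689 CPM in shNT 1 and 948 in shNT 2. Most of that gap was Lyz2, at 454 CPM in shNT 1 and 645 in shNT 2. Ptprc (7.26 and 6.36 CPM) and Fcer1g (2.77 and 2.08) were lower in shNT 2. Csf1r was nearly level, and the other tested markers were higher in shNT 2. Of the 12 Rab genes that fell in shGrhl3, 11 were also higher in shNT 2 than in shNT 1, by a ratio of 1.01 to 1.30, beside 1.38 for the marker sum. The exception was Rab8b, at a ratio of 0.920. The share of all genes that were higher in shNT 2 was not counted, so the 11 of 12 has no background beside it. Over 4 libraries in 2 groups no relation between the markers and the Rab genes was tested.

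**Figure D5:**
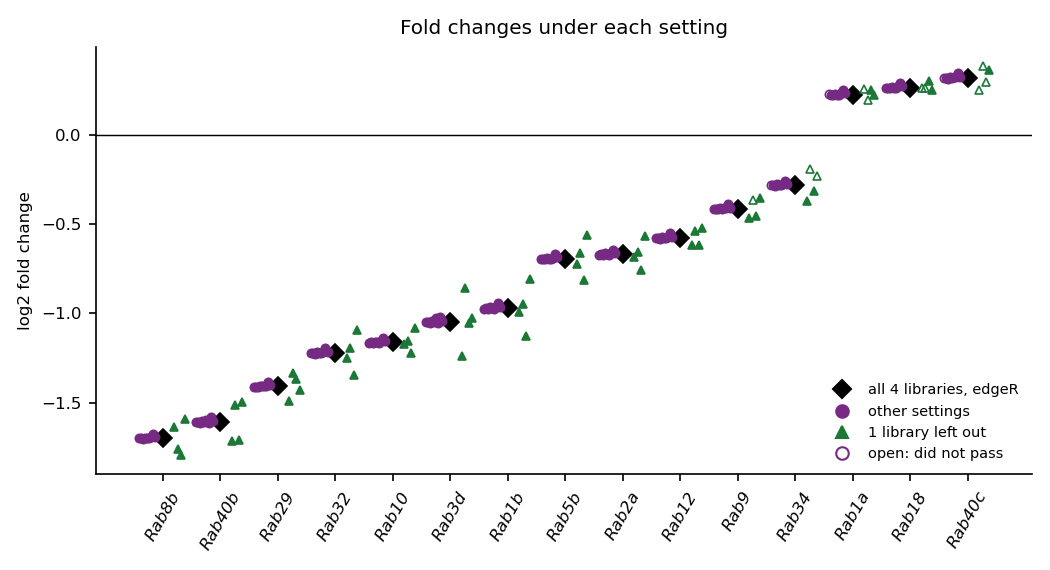
Log2 fold change (vertical axis) of the 15 Rab genes that passed, with all 4 libraries in edgeR (black diamonds), under the other settings of filter, scaling, tool and block (purple circles) and with 1 library left out (green triangles); open symbols did not pass the test. All symbols of the first 10 genes from Rab8b to Rab12 are filled, and open symbols appear in Rab9, Rab34, Rab1a, Rab18 and Rab40c.

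The call of 10 lowered Rab genes held in all 13 other settings: Rab8b, Rab40b, Rab29, Rab32, Rab10, Rab3d, Rab1b, Rab5b, Rab2a and Rab12. The 3 higher ones and the lower Rab9 and Rab34 each lost the call in at least 1. No Rab gene that passed changed direction in any setting. Leaving out shNT 1 or shNT 2 left 0 Rab genes higher and 12 or 11 lower by edgeR, where 18 and 17 had an unadjusted p under 0.05 in either direction.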

How the data were processed

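The authors deposited 1 table of raw counts per gene for the 4 RNA-seq libraries, whole numbers that were not normalized. The build mm10 and the tools HISAT2 (2.0.1), Bowtie2 (2.2.6), cutadapt (1.9.1), ChIPseeker and MACS2 are named, without roles, per the submitters' processing notes. No source used here gives the counting program, its annotation, its strand setting or its handling of multi-mapping reads. Of 55359 rows, 1438 name no gene and were left out. The 2 hairpin columns are headed shGrhl1 and shGrhl2 and were read as replicates 1 and 2 of shGrhl3, the only target the labels name. Libraries of a group differed by more than sampling noise (chi-square per degree of freedom 14.1 for shNT and 8.66 for shGrhl3).

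Genes were filtered with filterByExpr (minimum count 10), scaled by TMM and tested with edgeR 4.0.16 in R 4.3.3 (quasi-likelihood, robust, shGrhl3 against shNT, no covariate), two-sided, with Benjamini-Hochberg adjustment over all 15324 genes and a threshold of 0.05. CPM uses the TMM-scaled library sizes, SE comes from the F statistic, and intervals are 95%. The fit was tested on simulated data. An exact permutation test of a single value could not go below p = 0.333 with 2 libraries a group, so none was run. Alternatives were DESeq2 1.42.0, limma-voom (limma 3.58.1), other scalings and filters, a replicate block and leaving out each library. Members and lists were chosen with earlier results of these data known. The text names every Rab gene, and per list and direction up to 4 genes with the lowest p, or all where 5 or fewer passed. A further gene of prenylation and GDI was left out of that list and is not reported here. Genes were not ranked by level, because no transcript lengths were used here. Sums over several genes, the part of a gene in such a sum, and the counts of Rab10os beside Rab10 are not divided by length. Positions and promoter windows are from RefSeq GRCm38.p6, in which all 59 Rab genes were found.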

Additional observations from a re-analysis of the deposited data

How the results depend on the processing

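The count of lower Rab genes stayed between 11 and 13 in all 13 settings, and that of all genes past the threshold within 1.5 times the reported 5402 (3835 to 5190 with a library left out, 4234 with DESeq2). The count of higher Rab genes, reported as 3, ranged from 0 to 4 with a library left out, and was 0 without shNT 1 and without shNT 2. The median log2 fold change of the Rab genes, reported as -0.16, was -0.13 with library size only and -0.19 with no filter, and ranged from -0.20 to -0.15 with a library left out. The count of higher genes on the Rab pathway lists, reported as 19, ranged from 11 (without shNT 2) to 25 (without shGrhl3 1) with a library left out. Where an arm had 1 library, it was assumed to vary like the other group. Same-numbered libraries did not deviate together (correlation -0.06), so the labels' numbers are not read as pairs. With a replicate block, 1 Rab gene was higher (Rab18) and 11 were lower; Rab1a (adjusted p = 0.0689), Rab34 (0.0508) and Rab40c (0.0505) lost their calls, and 5042 genes passed in all. Rab23 passed with the stricter filter of 30 counts (adjusted p = 0.0477). Depth limits the 11 Rab genes that were not tested and the members with few counts.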
